A study of Mus musculus with 25 samples.

Results

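The calmodulin, CaMKII and calcineurin genes described here are 9 named genes, Calm2, Calm3, Camk2a, Camk2b, Camk4, Ppp3ca, Ppp3r1, Nrgn and Pcp4. They were looked up by symbol among the 24411 genes of each of 3 deposited tables of neuronal nuclear RNA, and all 9 were present in each table. Within a table, the libraries of its 2 groups were compared.

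Calcium that enters a neuron through synaptic receptors and channels binds calmodulin, a small sensor protein that then switches on the CaM kinases and the phosphatase calcineurin. CaMKII, built in forebrain neurons mainly from alpha and beta subunits, is needed for long-term potentiation and spatial memory in the hippocampus, and calcineurin removes phosphate from synaptic and nuclear targets and takes part in long-term depression. Neurogranin and PCP4 bind calmodulin through an IQ motif and tune how calmodulin meets calcium and its enzymes.

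Nuclei carrying the neuronal antigen NeuN were sorted from hippocampi of male C57BL/6 mice and their RNA was sequenced, with 1 library per mouse. The aging experiment asked what differs between young (3 months, 3 libraries) and aged (18 months, 2 libraries) wild-type mice. In the overexpression experiment, young mice received lentivirus in CA1 and the dentate gyrus that carried Ftl1, the ferritin light chain, together with GFP (7 libraries labelled Ftl1 OE) or GFP alone (5 GFP controls), both under the neuronal synapsin-1 promoter. In the knockdown experiment, aged mice (18 months) received virus in the same regions whose short hairpin RNA targeted either Ftl1 (4 libraries labelled Ftl1 KD) or luciferase (4 sh-Luc controls). The sort gated on NeuN and not on the virus, so nuclei without virus could be in each library, and their share is not given. Recovered reads per library ranged from 7969282 to 9537872 in the aging, from 9943996 to 17034325 in the overexpression and from 48902 to 358560 in the knockdown experiment. Values are normalized counts, reads divided by the size factor of the library. Each table was normalized separately, so levels from different tables share no scale.

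Counts of Ftl1 RNA were no higher in libraries labelled Ftl1 OE than in their controls and were higher in libraries labelled Ftl1 KD. FTL1 protein, which the study measured by western blot, is not in these tables, so these counts do not judge the labels. The normalized count was 1685, 1925 and 2141 in young and 4247 and 4272 in aged libraries, and 7315, 4580.4, 28309, 7415 and 9953 in GFP controls 9901, 9904, 9905, 9925 and 9926. Libraries labelled Ftl1 OE held between 4737 and 7663, with a median of 5171, and 6 of these 7 lay below the control median. The limma log2 difference from the controls was -0.67 (SE 0.34, adjusted p 0.681). It was -0.27 without control 9905, -0.10 without 9905 and 9926 and -0.07 without 9905, 9918 and 9926, the latter pair of exclusions chosen after seeing the data. Counts of Ftl1 in the knockdown table were 49.1, 45.6, 56.2 and 24.2 in sh-Luc controls 1, 2, 3 and 5, against 117, 106, 109 and 139.6 in libraries 1, 3, 4 and 5 labelled Ftl1 KD. There the difference was 1.47 (SE 0.25, limma adjusted p 2.2e-04), higher in 4 of 4 libraries. The groups are therefore called libraries labelled Ftl1 OE and libraries labelled Ftl1 KD throughout. Between aged and young libraries Ftl1 differed by 1.16 (SE 0.26), with an adjusted p of 0.397 in limma and 1.7e-04 in DESeq2.

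Neuronal markers were present in all 25 libraries. Rbfox3, which encodes NeuN, ranged from 1762 to 2960.0 in the aging, from 2573 to 5301 in the overexpression and from 2.94 to 15.1 in the knockdown table. Glial transcripts were present too. In the overexpression table the summed normalized count of 6 oligodendrocyte markers ran from 22584 to 47563 per library, against 15331 to 50935 for 4 neuronal markers, and Mbp, the myelin basic protein gene, was the most abundant of the former with a mean of 25620.3. In such bulk libraries, fewer nuclei of a cell type and less RNA per nucleus cannot be told apart.

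Libraries 9905, 9926 and 9918 of the overexpression experiment stood apart from the others in their profile over all genes. Their median correlation with the other 11 libraries was 0.773, 0.786 and 0.791, against 0.822 to 0.902 for the remaining libraries, and members are given with and without them where that matters.

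Per kilobase of transcript, Calm2 had the highest mean level of the 9 members in every group. In aged libraries it overlapped with Camk2a, with a lowest value of 6584 for Calm2 and a highest of 8173 for Camk2a. Among young libraries the mean of Calm2 was 11163 normalized counts per kilobase (SD 2607, n = 3). It was followed by Camk2a at 6363, Camk2b at 2702 and Ppp3ca at 1577, with no overlap between neighbours in that order. Ppp3r1 at 844 and Pcp4 at 682 overlapped, as did Camk4 at 369 and Calm3 at 303. The order depends on the length used, here the median of annotated coding transcripts. For Camk2a this was 1734 bases, from 5 transcripts of 499 to 4970 bases. Which transcripts were expressed is not known, so another length could change its place. Nrgn, the neurogranin gene, came last at 94.1 (SD 19.3), below all other members in each young library.

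GFP controls gave another order. Calm2 led with 22311 counts per kilobase (SD 7699, n = 5), and Camk2b at 7696 overlapped with Camk2a at 7027. Pcp4 at 4197, Nrgn at 3999, Ppp3r1 at 3997, Ppp3ca at 2815 and Calm3 at 2606 each overlapped with the next, and Camk4 was lowest at 131. In sh-Luc controls the order began with Calm2 at 56 (SD 11.5, n = 4), Camk2a at 48.7 and Camk2b at 37.8, which overlapped as neighbours. Calm3 followed at 15.9 and overlapped with Pcp4 at 12.1, Ppp3r1 and Ppp3ca were both at 5.83, Nrgn stood at 5.17, and Camk4 was last at 1.06. Ranks of Nrgn thus ran from the last place in young libraries to the middle of the order in GFP controls, in tables made from separate experiments. Proportions of glial, neuronal and nuclear-retained RNA also differed between these tables, as given under the other observations.

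**Figure D1:**
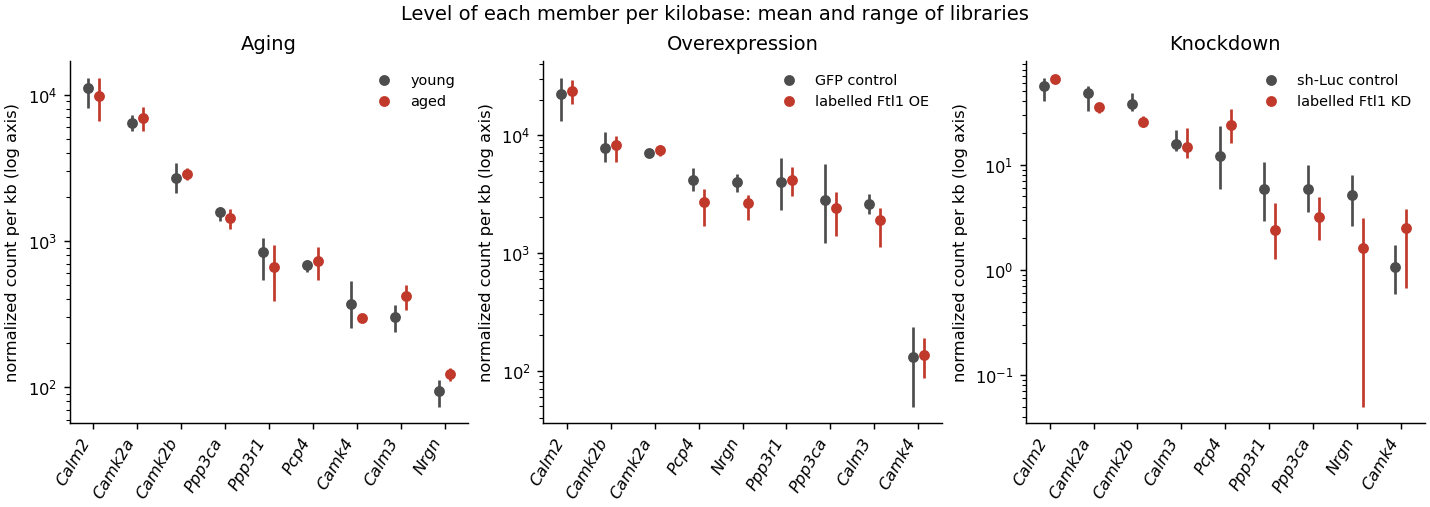
Level of the 9 members per kilobase of transcript, as normalized counts per kilobase on a log axis. Lengths are medians of annotated coding transcripts, and the order depends on them. Points are group means and lines run from the lowest to the highest library of a group. A library at 0 (Nrgn, labelled Ftl1 KD) is drawn at 0.05. Each panel has its own scale and order. Calm2 has the highest mean in each group and overlaps with Camk2a in aged libraries and sh-Luc controls.

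No member difference between aged and young libraries passed the threshold, but 2 aged libraries are too few to show that the members are unchanged. An aged library lay outside the young range for every member but Camk2b and Camk4. The 95% intervals from limma were wide, at -1.27 to 0.44 for Ppp3r1, -0.23 to 1.17 for Calm3 and -0.67 to 1.44 for Nrgn. Of the 9 members, 0 passed limma (adjusted p of at most 0.05 and an absolute log2 difference of at least 0.5), as did 0% of the 13712 genes tested. At an unadjusted p under 0.05 limma gave 0 members and 1089 genes, 7.94% of those tested, and edgeR called 0 members and 0 genes, DESeq2 0 members and 138 genes. The groups overlapped for 9 of 9 members, whereas 24.7% of all genes tested did not overlap between 3 young and 2 aged libraries. Member differences ran from -0.42 to 0.47 with a median of 0.04, beside a median of -0.03 over all genes. The member median was 0.19 without aged library 2 and -0.20 without aged library 3.

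Calm3, which encodes calmodulin, had 545, 839.7 and 694 counts in young and 1148 and 777 in aged libraries. Aged library 2 was above all young libraries and aged library 3 lay inside their range, with a limma difference of 0.47 (SE 0.32, adjusted p 0.724) that was 0.19 without aged library 2 and 0.75 without aged library 3. Calm2, which encodes the same protein and was more abundant, had 8359, 12708 and 13210.2 counts in young and 6738 and 13407 in aged libraries. Here the aged libraries were the lowest and the highest of all 5, and the difference was -0.24 (SE 0.36, adjusted p 0.88).

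Ppp3r1 encodes the regulatory B subunit of calcineurin and had 1533, 3005 and 2701 counts in young and 1118 and 2689 in aged libraries. Aged library 2 was the lowest of all 5, and the difference of -0.42 (SE 0.39, adjusted p 0.797) turned to 0.21 without it. The same library was low for Ppp3ca, the catalytic A alpha subunit, with 4223 counts against 5756 in aged library 3 and 4749.7, 5914 and 5784 in young libraries. Without aged library 2 the difference of Ppp3ca turned from -0.15 to 0.08, that of Calm2 from -0.24 to 0.26, that of Camk2a from 0.10 to -0.16 and that of Camk2b from 0.11 to -0.02.

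Camk2a, the alpha subunit of CaMKII, ranged from 9794 to 12494 in young libraries and stood at 14172 and 9805 in aged libraries. Camk2b, the beta subunit, ranged from 4063 to 6568 and stood at 6029 and 5019. The log2 ratio of Camk2a to Camk2b within a library needs no scaling between libraries, and averaged 1.11 over the 3 young libraries (SD 0.17) and 1.10 over the 2 aged ones (SD 0.19). Camk4, the mainly nuclear CaM kinase, ranged from 686 to 1438 against 834 and 779 and differed by -0.25 (SE 0.34), and without young library 1 the difference of Camk4 turned to 0.05 and that of Camk2b to -0.05.

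Nrgn, the postsynaptic calmodulin buffer, had 107, 141 and 162 counts in young and 159 and 196 in aged libraries. Both aged libraries exceeded the young median, but 1 lay inside the young range, and the difference was 0.39 (SE 0.49, adjusted p 0.853), from 0.22 without young library 1 to 0.53 without aged library 2. Pcp4 had 445, 476 and 391 counts against 349 and 579.7, so that the aged libraries were the lowest and the highest. Its difference of 0.04 (SE 0.35) turned to -0.03 without young library 3 and to -0.32 without aged library 3.

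Around the members, 11 lists of 66 genes cover calmodulin, small IQ-motif proteins, CaM kinases and their inhibitors, and calcineurin with its regulators and targets. They also cover other calmodulin-dependent enzymes and calcium sensors. Of 64 tested in aging, limma called 0, and 2 were higher and 3 lower at an unadjusted p under 0.05, which 7.94% of all genes reached. The higher ones were Pde1c, a calmodulin-stimulated phosphodiesterase gene, at 1.94 (SE 0.62, adjusted p 0.51), and Ppp1r1a, a phosphatase inhibitor gene, at 1.00 (SE 0.37, adjusted p 0.556), both higher in 2 of 2 aged libraries than in all young ones. Ppp3r2, the second calcineurin B gene, had 70.5, 37.1 and 47.9 counts in young against 2.96 and 3.67 in aged libraries, or 3 to 4 reads in the latter. The groups of Ppp3r2 did not overlap, at a difference of -3.57 (SE 1.15, adjusted p 0.516). The 5 calcineurin subunit genes tested had a median of -0.42, with Ppp3cb at -0.00 (SE 0.31) and Ppp3cc at -0.48 (SE 0.56). Ppp3r2 alone had an unadjusted p under 0.05, and Ppp3ca and Ppp3r1 turned without aged library 2 as given above. Akap5, an anchor of calcineurin at the synapse, stood at 450.1, 451 and 536 against 205 and 312, a difference of -0.91 (SE 0.36, adjusted p 0.581). Nfatc2, of the list of calcineurin and CaM kinase targets, was the remaining lower gene, at -1.90 (SE 0.72, adjusted p 0.556) with overlapping groups. Its counts were 166, 352 and 260.0 against 170.0 and 24.8. The difference became -3.27 without aged library 2 and -0.54 without aged library 3.

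The overexpression experiment asked what Ftl1 given to young neurons changes, and its libraries showed lower counts of 3 members, none past the adjusted threshold. Of 9 members limma called 0 at an adjusted p of at most 0.05, as it called 0% of the 14099 genes tested, and edgeR called 0 members and 0 genes, DESeq2 0 members and 91 genes. Without GFP control 9925 limma called 1 gene, no member. At an unadjusted p under 0.05 limma gave 3 of 9 members, Nrgn, Pcp4 and Calm3, all lower, or 33.3% beside 7.26% of all genes. Nrgn was lower in all 7 libraries labelled Ftl1 OE than in all 5 GFP controls. It was 1 of 9 members whose groups did not overlap, beside 0.582% of all genes. The member differences had a median of 0.08, beside 0.10 over all genes. Scaling by the library total without the ribosomal RNA gene Rn45s moved the median of all genes by 0.12 and median centring by -0.10, and the differences of Nrgn, Pcp4 and Calm3 stayed below 0 under both.

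Nrgn had 5232, 6633, 5627, 6826 and 4736 counts in GFP controls 9901, 9904, 9905, 9925 and 9926. Libraries labelled Ftl1 OE ranged from 2773 to 4477 with a median of 4256. The highest of them stayed below the lowest control, 9926, and libraries 9915, 9923 and 9918 were lowest. Mean counts were 5811 (SD 899, n = 5) and 3872 (SD 669, n = 7), a limma log2 difference of -0.59 (SE 0.18, 95% interval -0.96 to -0.22, adjusted p 0.499). DESeq2 on the recovered reads gave the lowest adjusted p of the alternatives, 0.0563, and the highest was 0.954.

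Pcp4 had 2360.4, 3090.5, 2482, 3361 and 2158 counts in the same controls. Among libraries labelled Ftl1 OE it ranged from 1092 to 2249 with a median of 1841, and 7 of 7 lay below the control median of 2482. Library 9915 alone, at 2249, reached above the lowest control. Mean counts were 2690.3 (SD 511, n = 5) and 1717 (SD 425, n = 7), a difference of -0.67 (SE 0.21, 95% interval -1.11 to -0.23, limma adjusted p 0.499), with adjusted p between 0.107 and 0.954 over the alternatives.

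The order of libraries was not the same for the 2 IQ-motif genes. Library 9915 had the lowest Nrgn and the highest Pcp4 of its group, and libraries 9918 and 9914 had the lowest Pcp4. The log2 ratio of Nrgn to Pcp4 was nearly constant in GFP controls, at 1.12 (SD 0.06, n = 5, range 1.02 to 1.18), and spread from 0.30 to 1.78 in libraries labelled Ftl1 OE (mean 1.19, SD 0.53, n = 7). Relative to Camk2a in the same library, a ratio added after seeing the data, Nrgn had a mean log2 ratio of -1.08 (SD 0.20) in controls and -1.75 (SD 0.26) in libraries labelled Ftl1 OE, with no overlap. The ratio of Pcp4 to Camk2a, added in the same way, was -2.20 (SD 0.24) and -2.95 (SD 0.39), with overlap. Gap43 and Pcp4l1, the remaining genes of the list of small IQ-motif proteins, differed by -0.54 (SE 0.44) and -0.63 (SE 0.29) with overlap. Pcp4l1, at -0.39 without control 9901, had an unadjusted p under 0.05 in limma, as did 7.26% of all genes.

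Since Nrgn and Pcp4 had the largest differences of the members in the overexpression experiment, the stretches upstream of both are shown, from the RefSeq promoter table for GRCm38.p6, which held 5 of the 9 members (Calm3, Camk2b, Ppp3r1, Nrgn and Pcp4). For Nrgn these are the 91 bases at chr9:37552905-37552995 on the minus strand, ahead of the annotated exon that covers the remaining 159 of the 250 bases before the RefSeq start. For Pcp4 they are the 250 bases at chr16:96467356-96467605 on the plus strand. Camk2b, whose difference was 0.11, is shown beside them with 250 bases at chr11:6065749-6065998 on the minus strand, and capitals mark its GC boxes. Its window lies before the RefSeq start but inside the gene as annotated by GENCODE M21, which begins at 6066362, and outside the annotated exons.
Nrgn: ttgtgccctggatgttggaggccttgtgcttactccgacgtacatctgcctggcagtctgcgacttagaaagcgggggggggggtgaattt
Pcp4: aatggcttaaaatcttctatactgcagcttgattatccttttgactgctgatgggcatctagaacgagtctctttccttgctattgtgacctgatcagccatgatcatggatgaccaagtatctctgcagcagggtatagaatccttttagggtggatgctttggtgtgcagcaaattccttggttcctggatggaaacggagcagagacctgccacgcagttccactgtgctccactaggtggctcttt
Camk2b: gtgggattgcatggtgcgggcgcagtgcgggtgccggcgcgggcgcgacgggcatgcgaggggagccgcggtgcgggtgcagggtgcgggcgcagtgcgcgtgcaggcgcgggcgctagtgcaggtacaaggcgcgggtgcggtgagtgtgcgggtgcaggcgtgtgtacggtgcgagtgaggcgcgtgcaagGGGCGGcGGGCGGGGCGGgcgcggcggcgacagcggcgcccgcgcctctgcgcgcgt
Motifs were searched on both strands of the 250 bases before each start. They were TATAAA, held by 12.4% of 32851 promoters of that length, CCAAT by 33.8%, the GC box GGGCGG by 32.7%, the cyclic AMP response element TGACGTCA by 1.55% and the EGR1 motif GCGTGGGCG by 0.536%. Pcp4 and Calm3 held none of them. Camk2b held 3 GC boxes, the last pair overlapping, Ppp3r1 held 4, and Nrgn held 1 GC box and 1 CCAAT, both in the exon stretch that is not shown. GC content was 46.8% for Pcp4 and 58.4% for Nrgn, but 69.2% for Calm3, the remaining member with lower counts at an unadjusted p under 0.05, and it was 70.8% for Ppp3r1 and 78.4% for Camk2b, beside a median of 52.4% over all promoters. CpG pairs numbered 3 in Pcp4, 11 in Nrgn and 44 in Camk2b. These letters describe the windows, and no binding was measured.

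**Figure D2:**
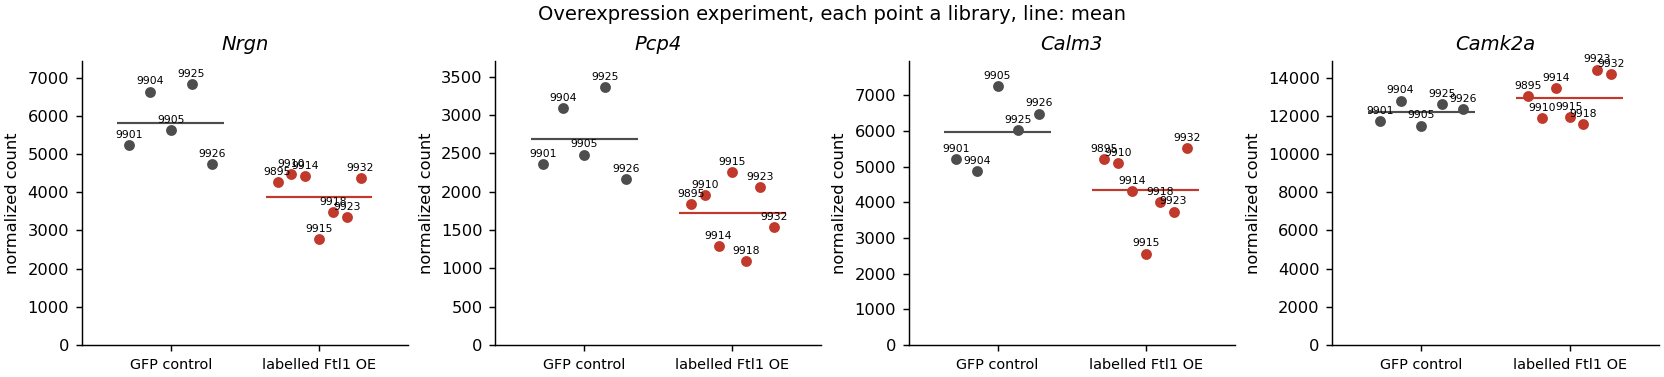
Normalized counts of Nrgn, Pcp4, Calm3 and Camk2a in each overexpression library, numbered as labelled, with the group mean as a line and axes from 0. All 7 libraries labelled Ftl1 OE lie below the 5 GFP controls for Nrgn, 7 of 7 lie below the control median for Pcp4 and Calm3, and the groups overlap for Camk2a.

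Calm3 had 5208, 4866, 7255, 6022 and 6487 counts in the controls and from 2562 to 5509.8 in libraries labelled Ftl1 OE, with a median of 4309. All 7 lay below the control median of 6022, and 4 lay below the lowest control, 9904. The limma difference was -0.48 (SE 0.20, adjusted p 0.638). Calm2 had 29883, 31533, 16686, 22461 and 13612 counts in controls and from 18683 to 30057 in the other group, with a median of 23390.2. Controls 9905 and 9926 were the lowest of all 12 libraries for Calm2, and its difference of 0.14 (SE 0.24) turned to -0.21 without both.

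CaMKII genes overlapped between the groups. Camk2a varied least of all members over the 12 libraries, from 11483 to 14423, a log2 range of 0.33, with 11709.6, 12797, 11483, 12592 and 12348 in controls and a median of 13027 in libraries labelled Ftl1 OE. Its difference was 0.08 (SE 0.16, 95% interval -0.25 to 0.41), and -0.02 with median centring. Camk2b ranged from 11274 to 20369 in controls and from 11472 to 18982 in the other group, a difference of 0.11 (SE 0.20) that was 0.02 without control 9926 and 0.23 without control 9925. The mean log2 ratio of Camk2a to Camk2b was -0.25 (SD 0.32, n = 5) and -0.28 (SD 0.18, n = 7). Both CaMKII inhibitor genes, Camk2n1 and Camk2n2, also overlapped between groups, at -0.05 (SE 0.29) and -0.28 (SE 0.67).

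For Ppp3ca, Ppp3r1 and Camk4 the highest and the lowest library were both GFP controls, and the groups overlapped. Ppp3ca had 10833, 19872, 4488, 9541 and 4184 counts in GFP controls and from 4824 to 11455, with a median of 8657, in libraries labelled Ftl1 OE. Control 9904 was highest and controls 9926 and 9905 were lowest of all 12. Ppp3r1 had 14143, 18321, 6564, 11421 and 6692 in controls and from 8614 to 15217 in the other group, with a median of 12158, and Camk4 had 397, 634, 307, 307 and 135 against 235 to 516, with a median of 379. Control 9904 was the highest library for 4 members, Calm2, Camk4, Ppp3ca and Ppp3r1, and 9905 and 9926 were among the 3 lowest for 3 of them, Calm2, Ppp3ca and Ppp3r1.

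The differences of these genes moved with those libraries. With all libraries they were -0.03 (SE 0.35) for Ppp3ca, 0.15 (SE 0.26) for Ppp3r1 and 0.17 (SE 0.36) for Camk4. Without controls 9905 and 9926, a choice made after seeing the data, they became -0.65, -0.30 and -0.25, those of Nrgn and Pcp4 became -0.70 and -0.80, and limma still called 0 members. Ppp3ca turned to 0.29 without control 9904, to 0.07 without 9901, to 0.02 without 9925, to 0.03 without library 9923, to 0.09 without 9932, and to 0.02 and 0.09 with TMM scaling and with the library total. Ppp3r1 turned to -0.02 without 9905 or without 9926, and without 9926 Calm2 turned to -0.02 and Camk4 to -0.13.

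Snap25, a presynaptic gene, had the same extremes, with 27889 counts in control 9904, 4453 in 9905 and 3190.1 in 9926. Summed over 4 neuronal markers, controls 9901, 9904, 9905, 9925 and 9926 had 31044, 50935, 19529, 24178 and 16411 and libraries labelled Ftl1 OE had from 15331 to 31606 with a median of 28756, so that control 9904 was again highest but library 9932 labelled Ftl1 OE, at 15331, was lowest. Syt1 was the most abundant of these markers, and 0 of 4 were called. Nuclear-retained RNAs, a list of 7 led by Malat1, summed to 110638, 253191, 61856, 136885 and 87676 in the controls and to between 78266 and 333252 in the other group, the highest in library 9918, with 0 of 7 called. Of 7 microglial markers, led by C1qb, 4 had lower counts in libraries labelled Ftl1 OE at an unadjusted p under 0.05 in limma, and 0 were called. Their sums were 4574, 2671, 3638, 2347 and 5268 in controls and 1361 to 2656, with a median of 2124, in the other group, and P2ry12 was at 0 in controls 9905 and 9926 and C1qa in library 9918. Of 6 interneuron markers, Sst and Pvalb were lower at an unadjusted p under 0.05 and 0 were called. Sums of that list, led by Gad1, were 6672, 8314, 11392, 7390.1 and 7070.1 in controls and 4931 to 7396, with a median of 6273, in the other group. The part of these cell types in the member differences was not tested.

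**Figure D3:**
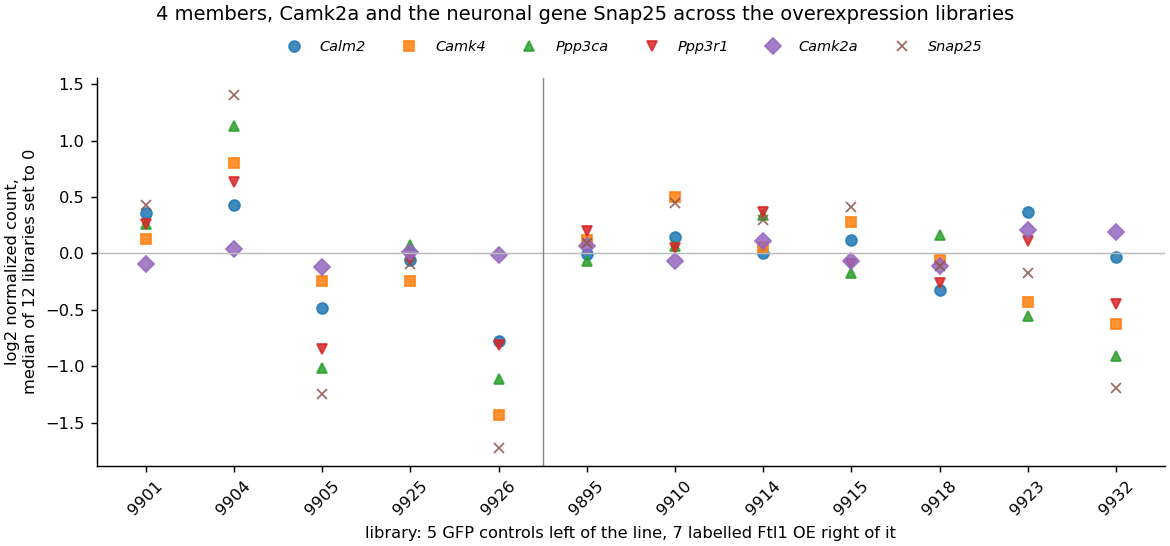
Log2 normalized counts of Calm2, Camk4, Ppp3ca, Ppp3r1, Camk2a and the neuronal gene Snap25 in the 12 overexpression libraries, each gene centred on its median. Control 9904 is highest for all but Camk2a, controls 9905 and 9926 are low for Snap25, Calm2, Ppp3ca and Ppp3r1, and Camk2a stays within a log2 range of 0.33.

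Over these 12 libraries, the genes whose log2 counts ran most like each member were found among 10475 genes with a mean of at least 100. The libraries share their treatment groups and the extremes named above, so Pearson r is a description. For Ppp3ca the nearest gene was Tcf4 (r = 0.96), for Ppp3r1 Zbtb18 (0.97) with the CaM kinase gene Camk1d among the next (0.97), for Camk4 the sodium channel gene Scn2a1 (0.98) and for Calm2 H3f3a (0.97). Calm3 ran most like Marcksl1 (0.95). The nearest genes were less close for Camk2b, with Pip5k1a and Mef2d at 0.89, for Camk2a, with Slc11a2 at 0.87, and for Nrgn and Pcp4, with Ap4s1 and 1500011K16Rik at 0.85. No member was among the 3 nearest genes of another.

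Other pathway genes in the overexpression experiment, 55 tested outside the members, gave 0 calls by limma, with 2 higher and 4 lower at an unadjusted p under 0.05, which 7.26% of all genes reached. Ppp1r1b, which encodes the phosphatase inhibitor DARPP-32, had 3563, 2938, 3684, 2692 and 1905 counts in controls and a median of 1394 in libraries labelled Ftl1 OE, with overlap, a difference of -0.75 (SE 0.27, adjusted p 0.575). Its relative Ppp1r1a differed by -0.55 (SE 0.26), and by -0.30 without control 9905. Nfatc3, a transcription factor that calcineurin activates, differed by 1.18 (SE 0.51, adjusted p 0.652) and the catalytic subunit gene Ppp3cc by 0.83 (SE 0.38, adjusted p 0.672). The median over the 55 was 0.03.

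The knockdown experiment asked the converse in aged mice. Its libraries were shallow, and 1460 genes reached the mean of 10 needed for the test. Of the 9 members, 7 were tested, and Camk4 and Nrgn fell below that limit. Limma called 0 of 7 members, beside 24.2% of all genes tested (154 higher and 200 lower), and edgeR and DESeq2 called 0 members among 420 and 348 genes. At an unadjusted p under 0.05 there were 4 of 7 members, 3 lower (Camk2b, Ppp3r1 and Ppp3ca) and 1 higher (Pcp4), or 57.1% beside 38.2% of all genes. The limit applies to the mean over all libraries, and Ppp3r1 and Pcp4 reached it through 1 group alone. Ppp3r1 averaged 16.7 in controls and 6.93 in libraries labelled Ftl1 KD, and Pcp4 averaged 7.76 and 15.2. Their part in this count is therefore a description and no support for a difference. Camk2b was the 1 of 7 whose groups did not overlap, beside 23.8% of all genes. The median member difference was -0.43, beside -0.01 over all genes. Median centring moved the latter by 0.11 and the member median to -0.32, and the higher share of all calls went from 43.5% to 55% with it. Without sh-Luc control 3, 2 members passed in limma, Camk2a at -0.61 (adjusted p 0.0307) and Pcp4 at 1.31 (adjusted p 0.0397). Their adjusted p ranged up to 0.459 and 0.314 over the alternatives. Since Pcp4 entered the test through libraries labelled Ftl1 KD alone, its pass is no support for a difference. Without sh-Luc control 5 limma called 235 genes.

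**Figure D4:**
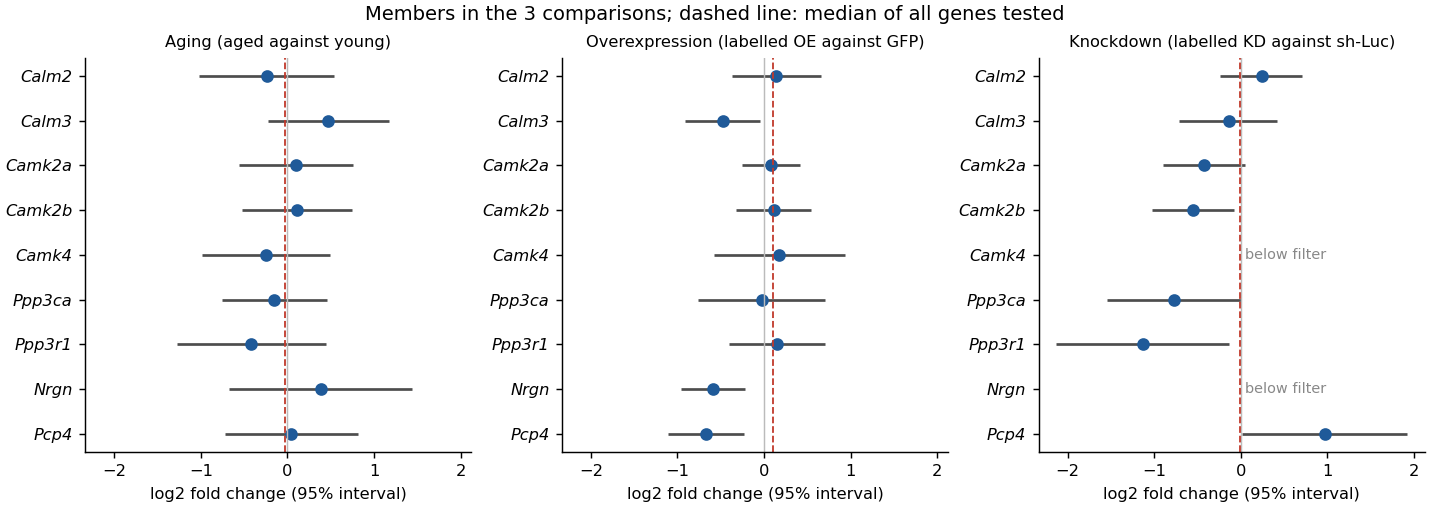
Log2 difference of each member between the groups of the 3 experiments, with 95% intervals from limma as lines and the median of all genes tested as a dashed line. Nrgn, Pcp4 and Calm3 have intervals below 0 in the overexpression panel. In the knockdown panel those of Camk2b and Ppp3r1 lie below 0, that of Ppp3ca ends at -0.00 and that of Pcp4 begins at 0.02. None passed the adjusted threshold, and Camk4 and Nrgn were below the filter in the knockdown experiment.

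Camk2b had 69.8, 62.5, 91.8 and 66.9 counts in sh-Luc controls 1, 2, 3 and 5 and 45.1, 51.4, 43.7 and 55.8 in libraries 1, 3, 4 and 5 labelled Ftl1 KD. Each of the latter was below each control. The limma difference was -0.55 (SE 0.23, 95% interval -1.02 to -0.08, adjusted p 0.0777). Camk2a had 91.5, 98, 56.2 and 92.4 counts against 53.7, 62.2, 63.8 and 66.1, and control 3 alone lay within the range of the other group. With all libraries its difference was -0.43 (SE 0.23, adjusted p 0.17). The log2 ratio of Camk2a to Camk2b was 0.39, 0.65, -0.71 and 0.47 in controls and 0.25, 0.28, 0.54 and 0.24 in libraries labelled Ftl1 KD, so control 3 had the lowest ratio and the groups overlapped.

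Both calcineurin members were tested on few reads. Ppp3r1 had 30.2, 11.3, 16.9 and 8.36 counts in controls and 12.5, 7.22, 3.64 and 4.41 in libraries labelled Ftl1 KD, from 2 to 32 reads a library. All 4 of the latter lay below the control median, but library 1 overlapped with the controls, and the difference was -1.13 (SE 0.49, adjusted p 0.0862). Ppp3ca had 12.3, 15.3, 18.7 and 34.7 counts against 6.71, 17.1, 9.11 and 11.8, with library 3 inside the control range, a difference of -0.77 (SE 0.38, adjusted p 0.131) that was -0.49 without control 5, the highest. The log2 ratio of Ppp3ca to Ppp3r1 spread from -1.30 to 2.05 in controls and from -0.89 to 1.42 in the other group.

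Calm2 and Calm3 overlapped between the groups. Calm2 had 63.2, 56.9, 41.2 and 68.1 counts in controls and 64.2, 64, 69.2 and 69.1 in libraries labelled Ftl1 KD, a difference of 0.24 (SE 0.23, adjusted p 0.481) that was 0.09 without control 3. Calm3 had 32.1, 49.2, 33.7 and 30.9 counts against 26.8, 27.1, 51 and 29.4, with the highest value in library 4, a difference of -0.14 (SE 0.28) that became 0.00 without control 2 and -0.36 without library 4.

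Pcp4 had 3.78, 6.86, 15 and 5.43 counts in controls and 10.5, 18, 21.9 and 10.3 in libraries labelled Ftl1 KD. All 4 exceeded the control median and 3 of the 4 controls, and control 3 overlapped with them. The difference was 0.97 (SE 0.46, adjusted p 0.123) on 4 to 20 reads a library. Nrgn, below the limit on the mean, had 3.78, 11.7, 7.49 and 7.11 counts in controls and 1.92, 4.51, 0 and 2.94 in the other group. Its counts rested on 54 reads in all controls and 9 in all libraries labelled Ftl1 KD, and in library 4 a count of 0 allows up to 5.47 normalized counts, which is 3 reads. Without the filter limma gave Nrgn a difference of -1.51 (SE 0.60, 95% interval -2.68 to -0.34, adjusted p 0.191). The log2 ratio of Nrgn to Pcp4 averaged 0.04 over the controls (SD 0.76, n = 4, highest 0.77) and -2.09 over libraries 1, 3 and 5 labelled Ftl1 KD (SD 0.34, n = 3, from -2.46 to -1.81). The groups did not overlap, control 3 being the lowest control, and no ratio could be formed for library 4. Camk4, also below the limit, had 4.72, 1.61, 1.87 and 3.34 counts against 7.67, 7.22, 1.82 and 10.3, with 1 to 8 reads a library and overlapping groups, and without the filter limma gave 0.90 (SE 0.58, adjusted p 0.498).

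**Figure D5:**
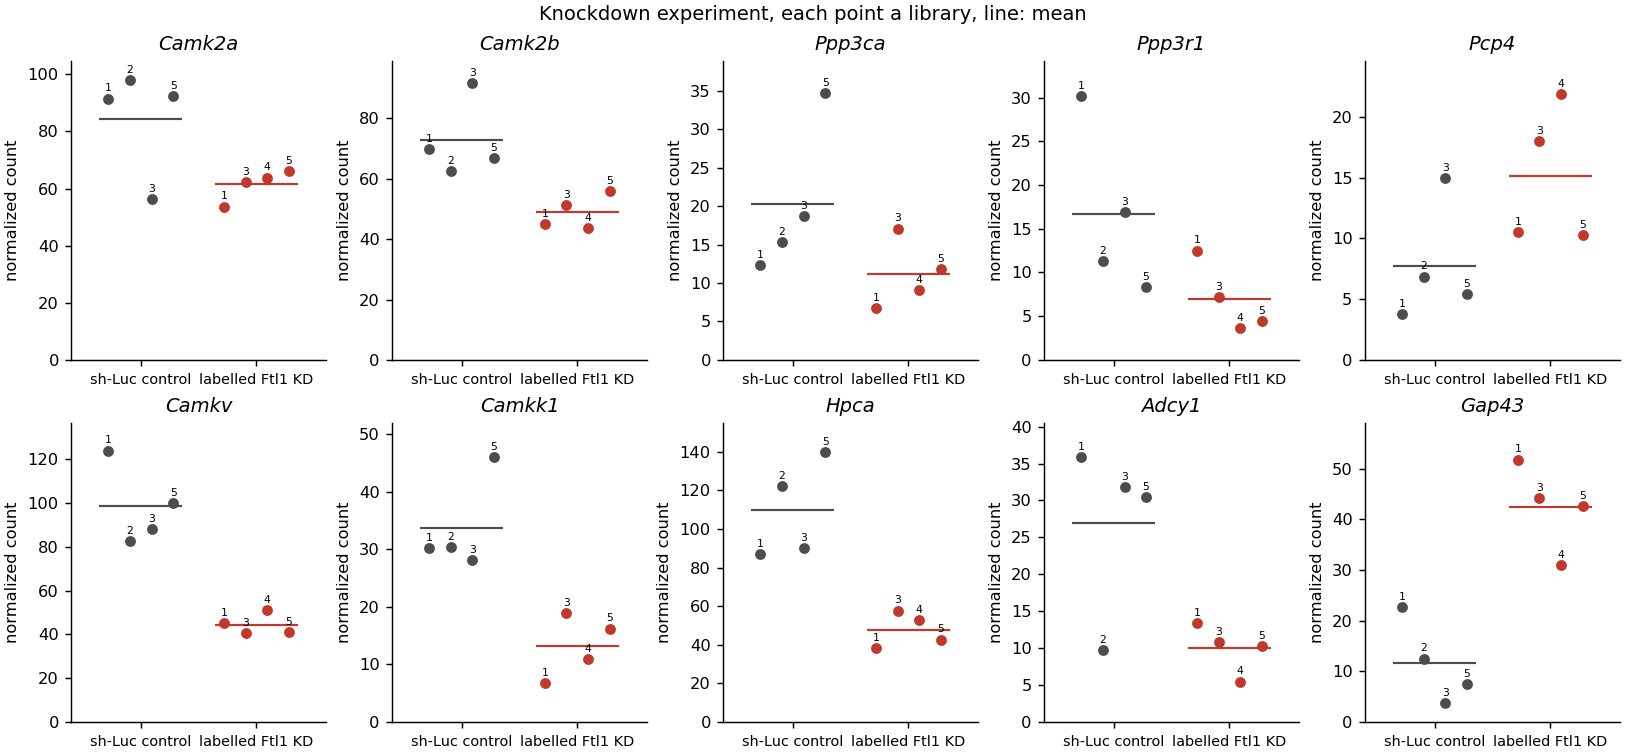
Normalized counts of 5 members (top row) and of the 5 pathway genes that limma called (bottom row) in each knockdown library, numbered as labelled, with the group mean as a line and axes from 0. Camk2b, Camkv, Camkk1 and Hpca are lower and Gap43 is higher in all 4 libraries labelled Ftl1 KD than in all 4 sh-Luc controls.

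Of all 21 pathway genes tested, members included, limma called 23.8%, beside 24.2% of all genes, so the share of calls was no higher than the background. The median difference of the 21 was -0.55, beside -0.01 over all genes. All 5 calls lay among the 14 outside the members, where 1 rose and 4 fell. Camkv, a CaM kinase-like protein of synapses without kinase activity, had 124, 82.7, 88 and 99.9 counts in controls and 45.1, 40.6, 51 and 41.1 in libraries labelled Ftl1 KD. It fell in 4 of 4 libraries, with a difference of -1.12 (SE 0.23, adjusted p 8.8e-04). Camkk1, a kinase that activates other CaM kinases, had 30.2, 30.3, 28.1 and 46 counts against 6.71, 18.9, 10.9 and 16.2 and fell in 4 of 4 libraries (-1.35, SE 0.33, adjusted p 0.00405). Hippocalcin, a calcium sensor of hippocampal pyramidal cells encoded by Hpca, had 86.8, 122, 89.9 and 139.6 counts against 38.4, 57.7, 52.8 and 42.6 and fell in 4 of 4 (-1.17, SE 0.23, adjusted p 8.3e-04).

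Adcy1, the calmodulin-stimulated adenylyl cyclase, had 35.9, 9.68, 31.8 and 30.5 counts in controls and 13.4, 10.8, 5.47 and 10.3 in the other group, where control 2 was as low as the libraries labelled Ftl1 KD. It fell by 1.26 on the log2 scale (SE 0.39, limma adjusted p 0.0182), and the call was lost without control 1 (0.0739), without control 5 (0.0631) or without library 4 labelled Ftl1 KD (0.07). Gap43, an IQ-motif relative of neurogranin found in axons, had 22.7, 12.5, 3.74 and 7.52 counts against 51.8, 44.2, 31 and 42.6. It rose in 4 of 4 libraries, by 2.00 (SE 0.37, adjusted p 4.3e-04). Crtc1, a CREB coactivator that calcineurin releases to the nucleus, had 29.3, 32.7, 13.1 and 16.7 counts against 12.5, 9.92, 12.8 and 8.82 and missed the threshold at -0.92 (SE 0.35, adjusted p 0.0541).

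Several marker lists moved with these calls. Of 7 nuclear-retained RNAs, 4 were tested and 4 fell in limma, led by Malat1, and their sums were 1004, 619, 697 and 1235 in controls and 322, 234, 219 and 229 in libraries labelled Ftl1 KD. Of 6 oligodendrocyte markers, both tested, Mbp and Cnp, fell, and the sums were 58.5, 93.6, 71.2 and 36.8 against 18.2, 21.6, 10.9 and 13.2, with Mbp the most abundant. C1ql2 of dentate granule cells and Fibcd1 of CA1, the most abundant markers of their lists and 1 of 1 and 1 of 3 tested, also fell. The other CA1 markers tested, Mpped1 and Wfs1, differed by 0.74 and -0.39 without a call, and the CA1 sums overlapped, at 52.4 to 88.6 in controls and 34.5 to 66.1 in the other group. Gad1, 1 of 2 interneuron markers tested, rose, with list sums of 43.4, 64.1, 31.8 and 23.8 in controls and 50.8, 68.5, 67.4 and 73.5 in the other group, while Sst differed by -0.36 without a call. Slc1a3, 1 of 3 astrocyte markers tested, rose too, but Aldoc, the most abundant, differed by -0.27 and Slc1a2 by 0.05. The sums of that list overlapped, at 33.7 to 69.8 and 59.5 to 76.5. Mbp, Cnp and the nuclear-retained Miat reached the limit on the mean through controls alone, averaging 9.61, 4.71 and 3.98 in the other group. Slc1a3 reached it through libraries labelled Ftl1 KD alone, averaging 5.56 in controls. The calls of these genes are therefore a description and no support for a difference. The neuronal marker sums were 169.9, 121, 95.5 and 137 in controls and 133, 109, 92.9 and 115 in libraries labelled Ftl1 KD, with 0 of 2 called. Rn45s took from 31.9% to 55.3% of reads in controls and from 30.3% to 34.5% in the other group. The part of cell composition, nuclear RNA and depth in the member differences was not tested.

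Positions follow GENCODE M21 on GRCm38. Calm2 (ENSMUSG00000036438.13) lies at chr17:87433412-87446935, Calm3 (ENSMUSG00000019370.10) at chr7:16915379-16924114, Camk2b (ENSMUSG00000057897.14) at chr11:5969644-6066362 and Nrgn (ENSMUSG00000053310.11) at chr9:37544492-37552904, all on the minus strand. Ppp3ca (ENSMUSG00000028161.17) lies at chr3:136670124-136937727, Ppp3r1 (ENSMUSG00000033953.10) at chr11:17159263-17200375 and Pcp4 (ENSMUSG00000090223.2) at chr16:96467606-96525793, all on the plus strand. Camk2a and Camk4 are ENSMUSG00000024617.16 and ENSMUSG00000038128.7. Camk4 and Ppp3ca each overlap with 2 genes annotated on the opposite strand, and since the sample records and the paper describe different library protocols, reads of these genes and of their overlapping neighbours cannot be told apart. The same holds for Camkv and Hpca, with 1 such gene each. On the same strand, where no stranded protocol separates them, Pcp4 overlaps with Igsf5, Ppp3r1 with Wdr92, Ppp3r2 with Grin3a, Ppp3ca with 1 further gene, and Camk2a and Gap43 with microRNA genes. The part of such neighbours in the differences, that of Ppp3r2 in aging included, was not tested.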

How the data were processed

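RNA of NeuN-sorted hippocampal nuclei was measured in 25 libraries. Per the submitters' notes, reads were aligned with STAR to mm10, counted with RSEM and normalized with DESeq2. The authors deposited 3 tables with a normalized count (signal) for each library, beside their mean, log2 fold change with its standard error, test statistic (score), p-value and adjusted p-value, which were not used. Per the labels the libraries were polyA-enriched and strand-specific, whereas the paper describes a modified Smart-seq2 protocol. Multiplying each library by its size factor returned whole reads (tolerance 0.001) for 100% of genes, and 0 library columns were left unused. Reads without molecular identifiers are not independent molecules, so floors cover counting error only.

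Groups were compared in R 4.3.3 with limma 3.58.1 (lmFit, eBayes with trend) on log2(normalized count + 1), for genes with a mean of at least 10, which were 13712 (aging), 14099 (overexpression) and 1460 (knockdown). P-values were two-sided, measure the spread between libraries and were adjusted by the Benjamini-Hochberg method over all genes tested. The threshold was an adjusted p of 0.05, for aging also an absolute log2 difference of 0.5. The models were tested on simulated data. edgeR 4.0.16 and DESeq2 1.42.0 were run on the recovered reads. Other alternatives were pseudocounts of 0.5 and 5, no filter or a mean of at least 100, TMM scaling, median centring, the library total without Rn45s, other limits on the fold change and leaving out each library.

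Levels per kilobase used the median length of protein-coding GENCODE M21 transcripts. Promoters came from RefSeq (GRCm38.p6). Python 3.11.15 was used for summaries. The members and the gene lists were chosen with earlier results of these data known. Named were the 9 members, Ftl1, from each pathway list every gene called or else at most 3 with the smallest p, the 3 genes most like each member, and abundant and defining markers. Camk2n1 and Camk2n2, Akap5 and Crtc1 belong to these lists.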

Additional observations from a re-analysis of the deposited data

Results flagged for a closer look

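Single libraries stood far from the others of their group in 8 of 69 groups of values tested, and chance alone flags about 1 in 20. Ftl1 had 28309 counts in GFP control 9905, against 4580.4 to 9953 in the other controls. Among sh-Luc controls, Calm3 had 49.2 in library 2 (others 30.9 to 33.7), Camk2a had 56.2 in library 3 (others 91.5 to 98) and Camkk1 had 46 in library 5 (others 28.1 to 30.3). Library 4 labelled Ftl1 KD, the shallowest with 48902 reads, had 51 counts of Calm3 (others 26.8 to 29.4), a log2 ratio of Camk2a to Camk2b of 0.54 (others 0.24 to 0.28) and a log2 ratio of Calm2 to Calm3 of 0.44 (others 1.23 to 1.26). In library 1 labelled Ftl1 KD the log2 ratio of Ppp3ca to Ppp3r1 was -0.89, against 1.25 to 1.42 in the others. Why these libraries differ was not tested.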

How the results depend on the processing

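The number of members called was 0 in every alternative for aging and overexpression, and from 0 to 2 in the knockdown experiment, where 2 came without sh-Luc control 3 and 0 in all others. Those were Camk2a and Pcp4, and Pcp4 had reached the limit on the mean through libraries labelled Ftl1 KD alone. With a mean of at least 100, no member of the knockdown experiment could be tested. Genes called went from 0 to 138 (aging) and 91 (overexpression) with DESeq2, and from 0 to 1 in the overexpression experiment as single libraries were left out. In the knockdown experiment 354 became 18 with a mean of at least 100, where 29 genes were tested, and 235 to 439 as single libraries were left out.

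The aging member median, 0.04, ran from -0.20 to 0.19 as single libraries were left out. The member median of the overexpression experiment, 0.08, became -0.30 without 9905 and 9926 and -0.26 without 9905, 9918 and 9926, both chosen after seeing the data, and ran from -0.13 to 0.12 as single libraries were left out. Those exclusions turned Calm2 to -0.21 and -0.15, Camk4 to -0.25 and -0.25 and Ppp3r1 to -0.30 and -0.26. Camk2a became -0.02 with median centring, and Ppp3ca 0.02 with TMM scaling and 0.09 with the library total. The knockdown member median, -0.43, became -0.32 with median centring, -0.33 with the library total, -0.48 with DESeq2 and -0.46 to -0.34 as single libraries were left out.

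With single libraries left out, aging differences ran from -0.73 to 0.26 for Calm2, 0.19 to 0.75 for Calm3, 0.22 to 0.53 for Nrgn, -0.16 to 0.37 for Camk2a, -0.05 to 0.29 for Camk2b, -0.49 to 0.05 for Camk4, -0.37 to 0.08 for Ppp3ca, -1.05 to 0.21 for Ppp3r1 and -0.32 to 0.41 for Pcp4. In the overexpression experiment they ran from -0.02 to 0.28 for Calm2, 0.02 to 0.23 for Camk2b, -0.13 to 0.42 for Camk4, -0.28 to 0.29 for Ppp3ca and -0.02 to 0.35 for Ppp3r1, and in the knockdown experiment from 0.09 to 0.33 for Calm2 and -0.36 to 0.00 for Calm3. Libraries of equal number did not pair (r of -0.054 and 0.024 in aging, -0.034, -0.020 and -0.052 in knockdown). A replicate block gave 173 genes and 0 members called and a member median of -0.36 in the knockdown experiment, and in aging Camk2b at -0.05 and Camk4 at 0.05. The cause of these changes was not tested. In the knockdown experiment, 1 to 8 reads a library for Camk4 and 0 to 29 for Nrgn limit what can be seen.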

Other observations

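The level of neurogranin relative to the alpha subunit of CaMKII within a library, a ratio chosen after seeing the data, differed between the tables. The mean log2 ratio of Nrgn to Camk2a was -6.35 (SD 0.25, n = 3) in young wild-type libraries, -1.08 (SD 0.20, n = 5) in GFP controls and -3.57 (SD 0.77, n = 4) in sh-Luc controls. For Pcp4 to Camk2a the means were -4.65 (SD 0.17), -2.20 (SD 0.24) and -3.61 (SD 1.18) in the same groups. A ratio within a library needs no scaling between libraries, but the experiments differ in age (sh-Luc mice were aged), virus and depth, and these differences cannot be told apart. Marker sums also stood in other proportions. In young libraries those of oligodendrocytes, neurons and nuclear-retained RNAs were 2914 to 6565, 24513 to 31376 and 253160 to 387250. They were 22584 to 47563, 16411 to 50935 and 61856 to 253191 in GFP controls. In sh-Luc controls they were 36.8 to 93.6, 95.5 to 169.9 and 619 to 1235. The part of cell composition and nuclear RNA in these ratios was not tested.

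Among pathway genes below the limit on the mean in the knockdown experiment, the following were chosen after their values were seen, with limma values from the fit without that limit. Itpka, a calmodulin-stimulated inositol trisphosphate kinase gene, had 11.3, 17.3, 5.62 and 23 counts in controls and 0.959, 3.61, 7.29 and 4.41 in libraries labelled Ftl1 KD. The groups overlapped, and it fell by 1.62 on the log2 scale (SE 0.49, limma adjusted p 0.0403). Its libraries labelled Ftl1 KD held 1 to 4 reads each. The share of all genes called in that fit is not given here, so the pass of Itpka is a description. The groups did not overlap for Camk2d, Camk1 and Pde1a, higher in 4 of 4 libraries labelled Ftl1 KD, or for Camk2n1, Cabp1 and Pcp4l1, lower in 4 of 4, and none of these passed. They come from a search of all listed genes below the limit, with 21 of 66 listed genes above it. Among all genes above the limit 23.8% did not overlap, and the share below it was not computed, so these genes are a description. Nos1 differed by -1.72 (SE 0.65, adjusted p 0.155) with overlap. Camk2d, a CaMKII subunit gene, differed by 1.58 (SE 0.57, adjusted p 0.13) and Camk1 by 1.21 (SE 0.57, adjusted p 0.324). Camk2n1, an inhibitor of CaMKII, differed by -1.56 (SE 0.66, adjusted p 0.245), with 4.72, 5.65, 5.62 and 5.85 counts in controls and 1.92, 1.8, 1.82 and 0 in libraries labelled Ftl1 KD, from 0 to 14 reads a library.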
